A study of Mus musculus with 24 samples.

Results

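The ERBB receptors and their ligands are described here as 6 genes, the receptors Egfr, Erbb2, Erbb3 and Erbb4 and the ligands Nrg1 and Hbegf, chosen by name. All 6 were found among the 15667 genes listed for the uninjected hearts and the 15327 genes listed for the injected hearts, and all 6 passed the filter on low values in both. RNA was sequenced from mouse hearts at postnatal day 7.5, labelled as heart apex and given in the methods as cardiac ventricles, in 24 libraries that formed 6 groups of 4. Knockout (KO) mice lack Xinβ (Xirp2), an actin-binding protein of the cardiomyocyte intercalated disc, in every tissue, through a LacZ-Neo cassette in place of parts of exons 6 and 7 and the intron between them. Their wild-type (WT) littermates were the controls, on a C57BL/6J back-cross. Uninjected KO and WT hearts made up a first experiment, sequenced in 50 bp single-end reads. In a second experiment, sequenced in 150 bp paired-end reads, KO and WT pups received adeno-associated virus serotype 9 under the skin at postnatal day 1, carrying either GFP (KO/GFP and WT/GFP) or YAP S127A (KO/YAP and WT/YAP). YAP S127A is a form of the human transcriptional coactivator YAP that escapes inhibition by the Hippo kinases. Both transgenes stood behind a cardiac troponin T promoter, so the vector acts in cardiomyocytes while the RNA came from all cells of the tissue. The labels number the 4 libraries of a group as replicates, and the p-values given measure only the spread between them.

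ERBB receptors are tyrosine kinases of the cell surface that signal in pairs. Neuregulin 1, encoded by Nrg1, is released by endothelial and endocardial cells of the heart and binds ERBB3 or ERBB4, whereas HB-EGF, encoded by Hbegf, binds EGFR or ERBB4. ERBB2 binds no ligand of its own and is the preferred partner of the other receptors. In cardiomyocytes the pair of ERBB2 and ERBB4 is required for trabeculation and for growth of the young heart, and its signals run through the ERK and PI3K-AKT cascades.

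Reads on listed genes numbered 20490875 to 31154155 per uninjected library and 15015038 to 19444404 per injected library. Xirp2 was at 0 to 0.972 CPM in the 12 KO libraries and at 56.0 to 168 CPM in the 12 WT libraries, in accord with the labels. CPM here is the authors' read count of a gene scaled to the size of the library. Fold changes are differences of mean log2(CPM + 1) from limma, a scale on which changes of low genes come out too small, and a gene is called at a Benjamini-Hochberg adjusted p under 0.05 over all genes tested. All 6 cardiomyocyte markers were present, and their summed level lay between 41312 and 63982 CPM in all libraries. In the second experiment, each vector comparison within a genotype shares libraries with the genotype comparisons, so their values are set side by side and not counted as separate evidence.

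Levels of different genes were compared per length, as CPM per kb of annotated exons (union over GENCODE M21 transcripts). Erbb2 was the highest of the 6, with a median of 5.91 CPM per kb in the uninjected hearts and 4.59 in the injected hearts. It exceeded Erbb3 in 8 of 8 uninjected libraries, without overlap, and Hbegf in 15 of 16 injected libraries. In the uninjected hearts, Erbb3 followed at a median of 2.87, Hbegf at 2.84, Erbb4 at 1.66 and Egfr at 1.07 CPM per kb. Erbb3 and Hbegf, neighbours in this order, could not be ranked, each being the higher in 4 of 8 libraries. In the injected hearts the order was Hbegf at 2.21, Erbb3 at 1.51, Erbb4 at 1.33 and Egfr at 0.871 CPM per kb, with Erbb3 above Erbb4 in 10 of 16 libraries and Erbb4 above Egfr in 16 of 16. Nrg1 was lowest in all libraries, with medians of 0.168 and 0.192 CPM per kb that stood apart from those of Egfr. With another measure of length, per kb of the longest transcript, Hbegf and Erbb3 traded places in the uninjected hearts, where the median of Hbegf was 4.74 CPM, between Erbb2 at 6.14 and Erbb3 at 2.87. In the injected hearts this measure gave medians of 4.77 for Erbb2 and 3.70 for Hbegf. Hbegf was below Erbb2 by it in 7 of 8 uninjected and 13 of 16 injected libraries.

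**Figure D1:**
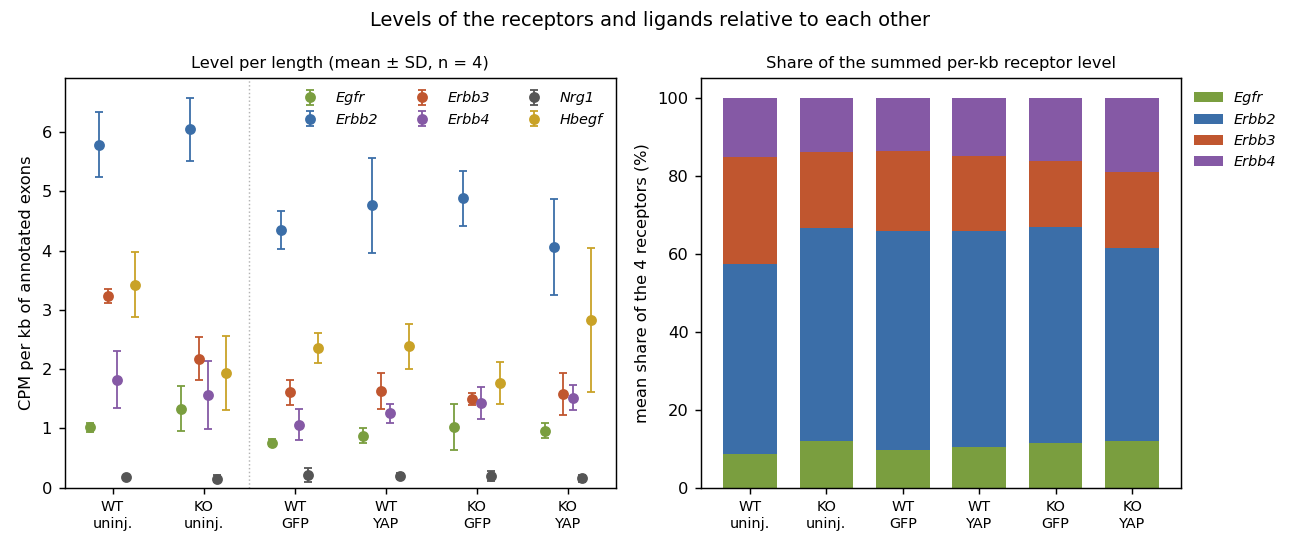
Left, level per length (CPM per kb of annotated exons, linear axis from 0) of each gene in the 6 groups, with points for the mean and bars for the SD of 4 libraries; the dotted line parts the separately normalised experiments. Right, mean share (%) of each receptor in the summed per-kb level of the 4 receptors, where Erbb2 takes the largest share in each group and Erbb3 a smaller one in uninjected KO (19.5%) than in uninjected WT hearts (27.4%).

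Within the summed per-kb level of the 4 receptors, Erbb2 held 48.8% ± 1.02 in uninjected WT hearts and 54.8% ± 8.32 in uninjected KO hearts (SD, n = 4). Erbb3, whose kinase is weak and which signals by lending docking sites to its partner, held 27.4% ± 2.87 in WT and 19.5% ± 2.23 in KO hearts. Its WT shares of 24.2% to 30.0% did not overlap the KO shares of 17.3% to 22.6%. Erbb4 and Egfr held 15.2% ± 2.87 and 8.59% ± 0.564 in WT and 13.8% ± 4.37 and 11.9% ± 2.98 in KO hearts, with overlap in both. In the injected groups the mean share of Erbb2 lay between 49.6% (KO/YAP) and 56.0% (WT/GFP), that of Erbb3 between 17.0% (KO/GFP) and 20.6% (WT/GFP), and that of Erbb4 between 13.6% (WT/GFP) and 19.0% (KO/YAP). Shares have no test here.

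Erbb3 (ENSMUSG00000018166, protein-coding, chromosome 10 from 128567523 to 128589652 of GRCm38, minus strand) was lower in uninjected KO than in WT hearts. In KO replicates 1 to 4 it was at 10.5, 15.6, 12.3 and 14.0 CPM, and the WT replicates held 18.9, 19.1, 19.3 and 20.5 CPM. The WT hearts lay within a narrow band, and all 4 KO hearts lay below it. Groups apart in this direction were found for 8.43% of all genes tested. The KO mean was 67.4% of the WT mean, a log2 fold change of -0.55 (95% interval -0.84 to -0.25, adjusted p = 0.040, limma with Benjamini-Hochberg adjustment). It was the only one of the 6 genes called in this comparison, in which 6.69% of the 15598 genes tested were called, 504 higher and 540 lower, a split that became 353 and 1241 with each column rescaled to the same sum. The call held in 3 of the 8 fits with 1 library left out, those without KO replicate 1, 2 or 4. Without KO replicate 3 or any 1 of the WT replicates the fold change stayed between -0.56 and -0.52 and the adjusted p rose to between 0.10 and 0.11. The number of all genes called also differed between these fits, with 187 higher and 192 lower without WT replicate 1 and 854 and 1244 without KO replicate 4.

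Genes of other cell types moved with this difference. The 6 fibroblast markers summed to 1142 to 1567 CPM in uninjected KO and 2132 to 2273 CPM in uninjected WT hearts, with 3 of the 6 called lower and a median log2 fold change of -0.55. Of the 6 macrophage markers 4 were called lower, with a median of -0.89, although their sums overlapped. Endothelial markers (7 of 7 listed) summed to 1082 to 1400 CPM in KO and 1479 to 1621 CPM in WT hearts. Among them Kdr was called lower (-0.60), whereas Npr3, an endocardial marker, was called higher in KO hearts (1.36). The sums of the 6 smooth muscle and pericyte markers overlapped, with 1 called lower. Of 5 epicardial markers Wt1 was tested, at 11.4 to 18.4 CPM in KO and 7.82 to 10.3 CPM in WT hearts (0.56, adjusted p = 0.089, limma), and was called by DESeq2. Cardiomyocyte markers summed to 52191 to 63982 CPM in KO and 45429 to 49616 CPM in WT hearts, with 1 of 6 called higher and a median of 0.23. That median was 0.09 with columns rescaled to the same sum and -0.06 after quantile normalisation, with 0 called in each. The part of these cell types in the Erbb3 difference was not tested, and in bulk tissue fewer cells of a type and less RNA per cell cannot be told apart.

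In the injected hearts Erbb3 was level across the groups. It was at 9.75, 8.30, 8.72 and 9.25 CPM in KO/GFP, 8.43, 10.3, 8.86 and 11.1 CPM in WT/GFP, 8.96, 7.36, 12.4 and 9.38 CPM in KO/YAP and 12.3, 8.62, 8.23 and 10.2 CPM in WT/YAP replicates 1 to 4. All 4 groups overlapped. KO/GFP against WT/GFP gave a log2 fold change of -0.09, with an interval from -0.41 to 0.23 (adjusted p = 0.75, limma) that overlaps the interval of -0.84 to -0.25 seen without vector. The experiments were sequenced and normalised apart, and the difference between their fold changes was not tested. The fibroblast list was also lower in KO/GFP (1169 to 1664 CPM) than in WT/GFP hearts (2026 to 2373 CPM), and 5 of the 6 macrophage markers were called lower there (median -1.29). The endothelial list summed to 1252 to 1294 CPM in KO/GFP and 1365 to 1524 CPM in WT/GFP hearts, with 3 of 7 called lower and 1 higher.

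**Figure D2:**
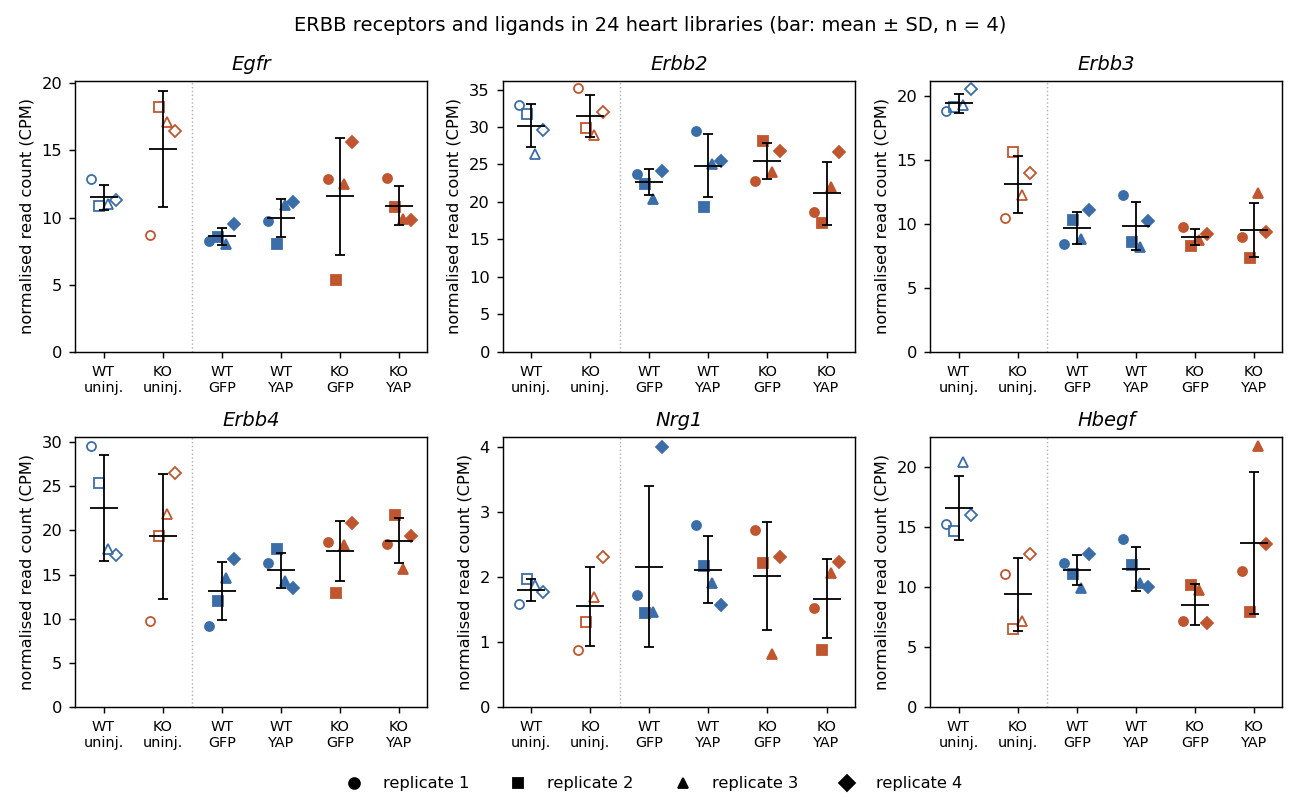
Normalised read count (CPM, linear axes from 0) of the 6 genes in each of the 24 libraries, with a marker shape for each replicate number, blue for WT, red for KO and open symbols for uninjected hearts; black bars give mean ± SD (n = 4) and the dotted line parts the experiments. Erbb3 and Hbegf of the 4 uninjected KO hearts lie below all 4 uninjected WT hearts, as do 8.43% of all genes tested. Egfr and Erbb4 have a low KO library in each experiment (replicate 1 uninjected, replicate 2 with GFP).

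Erbb2 (ENSMUSG00000062312, protein-coding, chromosome 11 from 98412470 to 98437716, plus strand), the receptor without a ligand, differed least between the uninjected genotypes. It was at 35.2, 29.8, 28.9 and 32.01 CPM in KO and 32.9, 31.7, 26.4 and 29.6 CPM in WT replicates 1 to 4. The groups overlapped, apart from KO replicate 1 above and WT replicate 3 below all libraries of the other group. The log2 fold change of 0.06 (95% interval -0.19 to 0.31, adjusted p = 0.78, limma) turned to -0.07 when each column was rescaled to the same sum, which moved the median of all genes to -0.12. In KO/GFP hearts Erbb2 was at 22.8, 28.1, 24.045 and 26.8 CPM and in KO/YAP hearts at 18.7, 17.2, 22.0 and 26.7 CPM. KO/YAP replicates 1 to 3 lay below all KO/GFP libraries, and KO/YAP replicate 4 lay among them (log2 fold change -0.27, interval -0.57 to 0.02, adjusted p = 0.21). In WT hearts it was at 23.8, 22.4, 20.4 and 24.1 CPM with GFP and 29.5, 19.4, 25.1 and 25.4 CPM with YAP, a log2 fold change of 0.11 (adjusted p = 0.92). The interaction of genotype and vector, the vector difference in KO minus that in WT, was -0.39 for Erbb2 (interval -0.81 to 0.03, adjusted p = 0.25). Its exons share 9 bp with those of Mien1 on the other strand, 0.173% of their length.

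Egfr (ENSMUSG00000020122, protein-coding, chromosome 11 from 16752203 to 16918158, plus strand), a receptor of HB-EGF, and Erbb4 (ENSMUSG00000062209, protein-coding, chromosome 1 from 68032186 to 69108059, minus strand), the neuregulin receptor of cardiomyocytes, each had 1 KO library well below the other three of its group in both experiments. Egfr was at 8.70, 18.2, 17.1 and 16.4 CPM in uninjected KO replicates 1 to 4, against 12.9, 10.8, 11.04 and 11.3 CPM in WT replicates 1 to 4. KO replicate 1 lay below all WT hearts and the other three KO replicates above them. The log2 fold change of 0.32 (95% interval -0.16 to 0.80) had an adjusted p of 0.44 and became 0.55 with an adjusted p of 0.012 without that library (limma). Over all genes, 965 higher and 796 lower were called without that library, against 504 and 540 with it. With GFP, Egfr was at 12.9, 5.36, 12.5 and 15.6 CPM in KO and 8.25, 8.53, 8.05 and 9.53 CPM in WT replicates 1 to 4. Here KO/GFP replicate 2 lay below all WT/GFP libraries and the others above them, and the log2 fold change went from 0.31 (interval -0.16 to 0.77, adjusted p = 0.40) to 0.61 (adjusted p = 0.0062) without it. Leaving out KO/GFP replicate 4 instead, the highest, gave 0.14 (adjusted p = 0.74). Over all genes, 1292 higher and 1464 lower were called without KO/GFP replicate 2, and 603 and 659 without KO/GFP replicate 4.

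Erbb4 was at 9.72, 19.3, 21.8 and 26.4 CPM in uninjected KO and 29.5, 25.3, 17.9 and 17.2 CPM in WT replicates 1 to 4. KO replicate 1 was again the lowest, and the other KO replicates lay among the WT hearts. The log2 fold change of -0.26 (95% interval -0.92 to 0.41, adjusted p = 0.66, limma) turned to 0.02 without that library and was -0.43 without KO replicate 4. With GFP, Erbb4 was at 18.6, 12.9, 18.3 and 20.8 CPM in KO and 9.20, 12.0, 14.6 and 16.7 CPM in WT replicates 1 to 4. The groups overlapped through KO/GFP replicate 2. The log2 fold change of 0.41 (interval 0.04 to 0.78, unadjusted p = 0.030, adjusted p = 0.13) became 0.55 with an adjusted p of 0.032 without that library and 0.26 with an adjusted p of 0.35 without WT/GFP replicate 1. Both libraries had the highest column sums of their experiments, 1084066 and 1134439. They were kept in every value given without a statement that they were left out.

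**Figure D3:**
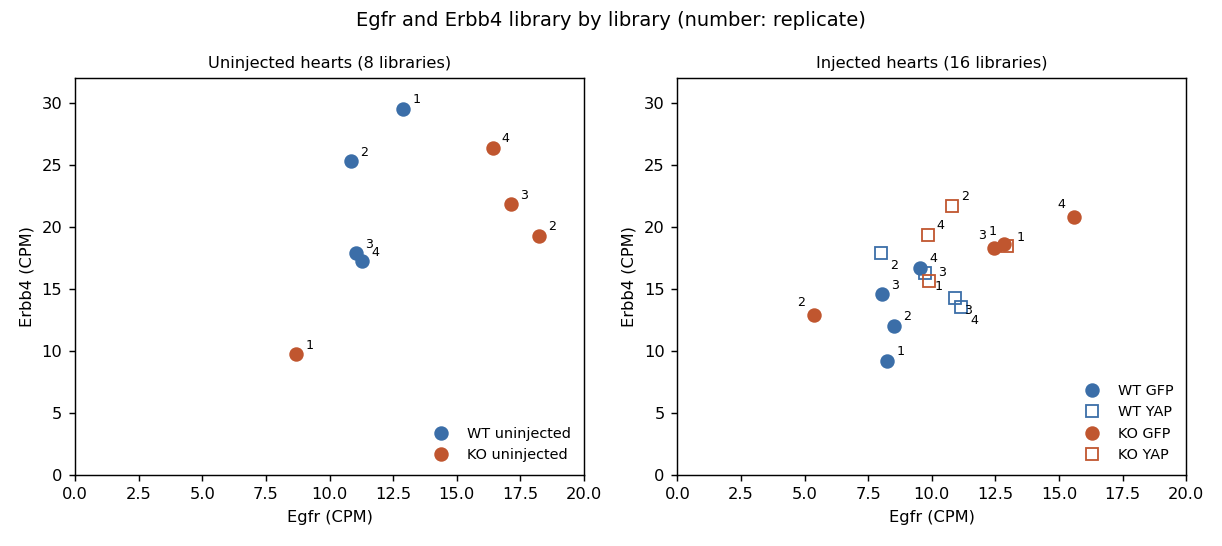
Egfr (x axis) against Erbb4 (y axis), both in CPM, in the 8 uninjected and the 16 injected libraries, with the replicate number at each point, blue for WT, red for KO and open squares for YAP. KO replicate 1 among the uninjected hearts (8.70 and 9.72 CPM) and KO/GFP replicate 2 among the injected hearts (5.36 and 12.9 CPM) lie at the low end of Egfr, away from the other three KO libraries of their groups.

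Of the 15 pairs among the 6 genes, Egfr and Erbb4 varied together in both experiments, with a Pearson r of log2(CPM + 1) of 0.58 over the 16 injected and 0.55 over the 8 uninjected libraries. Erbb3 and Hbegf had r of 0.60 and 0.62, Erbb3 and Nrg1 0.54 and 0.53, and Egfr and Hbegf -0.34 and -0.64. Erbb4 and Nrg1 had 0.0063 over the injected and 0.75 over the uninjected libraries. Erbb2 had r of -0.25 and -0.15 with Erbb4, its partner in cardiomyocytes. These values describe libraries that share groups, scaling and tissue composition.

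Hbegf (ENSMUSG00000024486, protein-coding, chromosome 18 from 36504927 to 36515805, minus strand), which encodes a membrane-bound ligand that proteases release, was at 11.1, 6.52, 7.19 and 12.8 CPM in uninjected KO and 15.2, 14.7, 20.4 and 15.9 CPM in WT replicates 1 to 4. All 4 KO hearts were below all 4 WT hearts. Groups apart in this direction were found for 8.43% of all genes tested. The KO mean was 56.7% of the WT mean and the log2 fold change -0.79 (95% interval -1.27 to -0.32), with an adjusted p of 0.057 from limma, just over the threshold. The adjusted p was 0.014 from DESeq2 and 0.024 from the edgeR exact test, lay between 0.0066 and 0.12 over 12 alternative settings, and was under the threshold without KO replicate 1 (0.043) or KO replicate 4 (0.016). With any other library left out it rose to up to 0.16. The fibroblast, macrophage, endothelial and cardiomyocyte lists moved with this difference as they did with that of Erbb3, and their part in it was not tested.

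With GFP, Hbegf was at 7.14, 10.2, 9.77 and 6.995 CPM in KO and 12.0, 11.04, 9.89 and 12.7 CPM in WT replicates 1 to 4. KO/GFP replicate 2 overlapped the lowest WT/GFP library, and the log2 fold change was -0.39 (95% interval -0.86 to 0.07, adjusted p = 0.26, limma). With YAP, KO hearts were at 11.3, 7.95, 21.7 and 13.6 CPM. Replicates 1, 3 and 4 lay above all KO/GFP libraries and replicate 2 within them. KO/YAP against KO/GFP gave a log2 fold change of 0.56 (interval 0.09 to 1.02, unadjusted p = 0.021, adjusted p = 0.099), which became 0.77 with an adjusted p of 0.023 without KO/YAP replicate 2 and 0.32 with an adjusted p of 0.28 without KO/YAP replicate 3. It was called in 1 of the 8 fits with 1 library left out. DESeq2 gave an adjusted p of 0.038. In WT hearts with YAP, Hbegf was at 14.0, 11.8, 10.3 and 9.98 CPM, a log2 fold change of 0.01 against WT/GFP (interval -0.45 to 0.47). The interaction was 0.55 (interval -0.11 to 1.20, adjusted p = 0.30). Fibroblast markers summed to 2043 to 2624 CPM in KO/YAP hearts, against 1169 to 1664 CPM in KO/GFP hearts, with 4 of 6 called higher. Macrophage markers summed to 85.7 to 126 CPM against 48.0 to 76.8 CPM, with 5 of 6 called higher, and smooth muscle and pericyte markers to 2294 to 2740 CPM against 1465 to 1959 CPM, with 3 of 6 called higher. Endothelial markers summed to 1391 to 1432 CPM against 1252 to 1294 CPM, with 2 of 7 called higher and 2 lower. Cardiomyocyte markers summed to 43722 to 46465 CPM against 48916 to 55940 CPM, with 1 of 6 called lower. The atrial markers (3 of 4 listed) summed to 35.2 to 172 CPM against 214.1 to 426 CPM. Of the 2 tested, with a median log2 fold change of -1.10, only Nppa, which encodes atrial natriuretic peptide, was called lower (-2.11). The part of these cell types in the Hbegf values was not tested.

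Nrg1 (ENSMUSG00000062991, protein-coding, chromosome 8 from 31814551 to 32884029, minus strand), the neuregulin ligand of endothelial cells, rested on 14 to 73 reads per library. Of its annotated exons 482 bp (4.66%) overlap Gm26578 on the other strand, and reads of the 2 cannot be told apart where counting did not use strand. It was at 0.874, 1.32, 1.70 and 2.31 CPM in uninjected KO and 1.59, 1.98, 1.89 and 1.77 CPM in WT replicates 1 to 4, with KO values on both sides of the WT values. The log2 fold change was -0.17 (95% interval -0.56 to 0.22, adjusted p = 0.63, limma). The injected groups had means of 2.02 ± 0.832 CPM (KO/GFP), 2.16 ± 1.23 CPM (WT/GFP), 1.67 ± 0.610 CPM (KO/YAP) and 2.12 ± 0.518 CPM (WT/YAP; SD, n = 4). WT/GFP replicate 4, at 4.00 CPM, stood above the other 3 of its group at 1.45 to 1.73 CPM. No injected comparison of Nrg1 was called, with intervals of -0.60 to 0.51 for KO/GFP against WT/GFP and -0.71 to 0.40 for KO/YAP against KO/GFP.

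Across the injected comparisons none of the 6 genes was called by limma. KO/GFP against WT/GFP had 0 of 6, where 13.7% of the 14597 genes tested were called, 939 higher and 1054 lower (590 and 1759 with columns rescaled to the same sum). At an unadjusted p under 0.05, met by 27.4% of all genes, it had 1 of 6, Erbb4, and DESeq2 and both edgeR tests called 0. KO/YAP against KO/GFP had 0 of 6 at a background of 14.8%, 1146 higher and 1010 lower (2156 and 591 after rescaling). Hbegf passed there at an unadjusted p under 0.05, as did 29.6% of all genes, and was called by DESeq2, while both edgeR tests called none. The interaction had 0 of 6 called, 0 at an unadjusted p under 0.05 and 0 by edgeR and DESeq2, where 7.56% of all genes were called and 23.7% had an unadjusted p under 0.05.

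KO/YAP hearts were compared with WT/GFP hearts to see how far the levels of treated KO hearts lay from those of control hearts. Here limma called 0.0206% of all genes and 0 of the 6, 1 of which, Erbb4, passed at an unadjusted p under 0.05 like 6.08% of all genes (log2 fold change 0.51, 95% interval 0.14 to 0.87, adjusted p = 0.72). Its KO/YAP values of 18.4, 21.7, 15.6 and 19.4 CPM overlapped those of WT/GFP through WT/GFP replicate 4. Egfr was at 13.0, 10.8, 9.89 and 9.84 CPM in KO/YAP hearts, above all 4 WT/GFP libraries, as were 2.13% of all genes, with a log2 fold change of 0.30 (interval -0.16 to 0.77, adjusted p = 0.85). WT/YAP against WT/GFP had 0 of 6 called by limma, edgeR and DESeq2 and 0 at an unadjusted p under 0.05, where limma called 0% of all genes and 1011 (6.93%) had an unadjusted p under 0.05. The fold changes of the 6 genes in it lay between 0.01 (Hbegf) and 0.25 (Erbb4, interval -0.12 to 0.61).

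**Figure D4:**
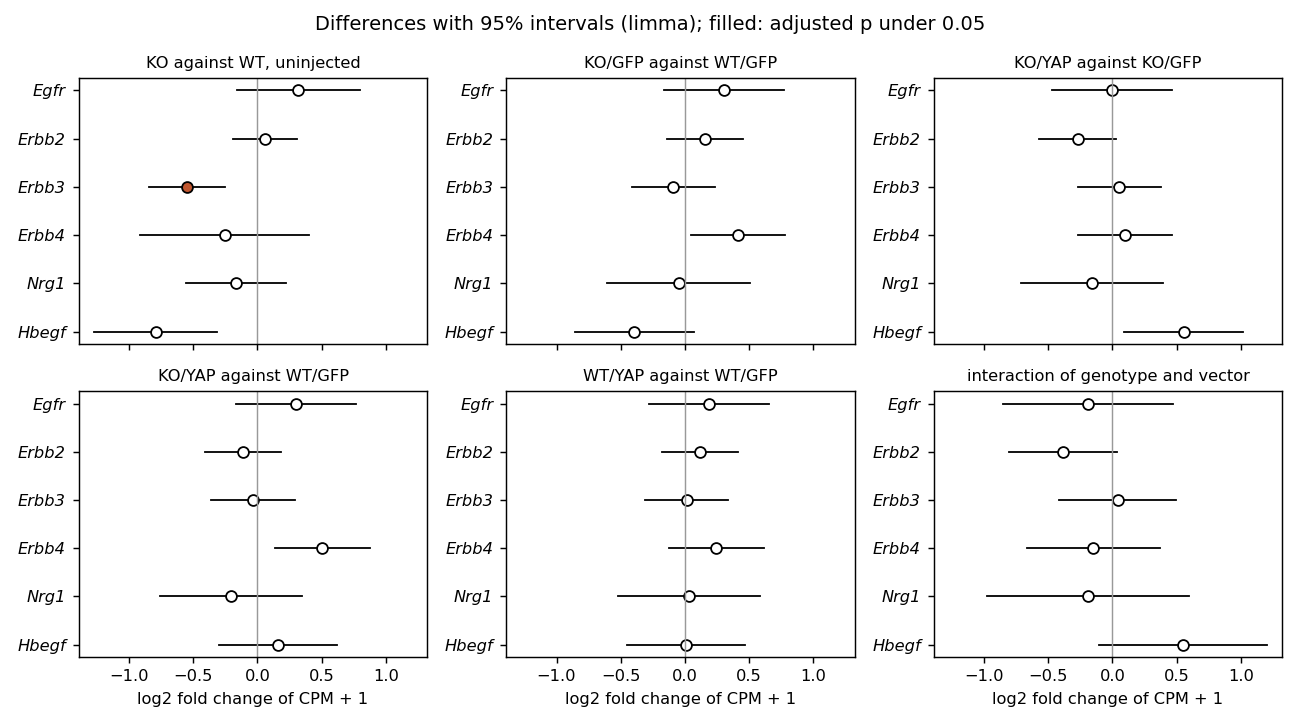
Log2 fold change of CPM + 1 (x axis) with its 95% interval from limma for the 6 genes (rows) in the 6 comparisons (panels), where filled points have an adjusted p under 0.05. Erbb3 in uninjected KO against WT (-0.55) is the filled point; Hbegf there (-0.79) and in KO/YAP against KO/GFP (0.56) and Erbb4 in KO/GFP against WT/GFP (0.41) and KO/YAP against WT/GFP (0.51) have intervals that leave out 0 without passing after adjustment.

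Among 9 other ligands of the EGF family, Egf, Tgfa, Btc and Nrg4 were tested, and Areg, Ereg, Epgn, Nrg2 and Nrg3 were not analysed here. Btc encodes betacellulin, a ligand of EGFR and ERBB4. It was at 0.534, 0.922, 0.849 and 0.943 CPM in uninjected KO and 1.70, 1.49, 1.47 and 1.44 CPM in WT replicates 1 to 4, without overlap. Since it passed the filter of 1 CPM in 4 of 8 libraries only through the WT hearts, this difference is given without a test. In KO/GFP against WT/GFP its log2 fold change was 0.05 (adjusted p = 0.92, limma). Nrg4, a ligand of ERBB4, had 0.44 in uninjected KO hearts (unadjusted p = 0.043, adjusted p = 0.20, limma).

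Of 9 proteases and iRhoms that act in the release of the ligands, 1 was called in the uninjected hearts, 1 in KO/GFP against WT/GFP and 2 in KO/YAP against KO/GFP, beside 6.69%, 13.7% and 14.8% of all genes. Adam8 was higher in KO hearts of both experiments. It was at 5.15, 5.93, 6.19 and 4.01 CPM in uninjected KO and 2.43, 2.08, 1.70 and 1.57 CPM in WT replicates 1 to 4 (log2 fold change 1.10, 95% interval 0.75 to 1.45, adjusted p = 0.0056, limma). With GFP, KO hearts were at 4.84, 2.48, 4.74 and 4.96 CPM and WT hearts at 1.91, 1.12, 1.09 and 1.86 CPM (1.06, adjusted p = 0.0034). KO/YAP hearts were at 1.24, 0.818, 1.54 and 1.43 CPM, below all KO/GFP libraries (-1.20, adjusted p = 0.0015), and the interaction was -1.17 (adjusted p = 0.028). ADAM8 is best known from leukocytes. The 6 macrophage markers summed to 44.1 to 89.7 CPM in uninjected KO and 74.4 to 90.3 CPM in WT hearts, and 4 of the 6 were called lower there. They summed to 48.0 to 76.8 CPM in KO/GFP, 93.6 to 155 CPM in WT/GFP and 85.7 to 126 CPM in KO/YAP hearts. Markers of other leukocytes were not examined here, and the part of leukocytes in the Adam8 values was not tested. Adam19, whose product can cleave neuregulin 1, was the other one of the 9 called, higher in KO/YAP than in KO/GFP hearts (0.50, 95% interval 0.23 to 0.76, adjusted p = 0.013). Its KO/GFP values were 113 to 139 CPM and its KO/YAP values 162 to 203 CPM. Adam17, the main sheddase of HB-EGF, was at 14.3 CPM in uninjected KO replicate 1 and 47.8 to 50.5 CPM in the other three, all below the WT hearts at 52.8 to 61.2 CPM (-0.63, 95% interval -1.44 to 0.18, adjusted p = 0.36). Without KO replicate 1 the log2 fold change was -0.20 (adjusted p = 0.12, limma).

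Of 8 genes whose products restrain or degrade the receptors, 0 were called by limma in uninjected KO against WT and 0 in KO/GFP against WT/GFP, where 6.69% and 13.7% of all genes were called (1 and 1 by DESeq2, 0 and 0 by edgeR's quasi-likelihood test). An unadjusted p under 0.05 was met by 2 and 1 of the 8 and by 22.5% and 27.4% of all genes. With a list of 8 these counts do not stand apart from the background. In KO/YAP against KO/GFP limma called 1 of the 8, and 4 had an unadjusted p under 0.05, beside 14.8% and 29.6% of all genes. The 1 called was Rnf41, which encodes NRDP1, a ubiquitin ligase that acts on ERBB3, and it was higher in KO/YAP than in KO/GFP hearts. It was at 22.5, 23.4, 22.9 and 16.2 CPM with YAP and 13.2, 14.8, 16.4 and 18.2 CPM with GFP, with KO/YAP replicate 4 among the GFP hearts (log2 fold change 0.41, 95% interval 0.14 to 0.69, adjusted p = 0.043). The feedback inhibitor Errfi1 (MIG6) was at 40.8 to 48.3 CPM in KO/YAP and 27.4 to 43.6 CPM in KO/GFP hearts (0.41, adjusted p = 0.079), and Lrig1 had an adjusted p of 0.73 there. Cblb, a ubiquitin ligase of receptor tyrosine kinases that was named after its values were seen, was the 1 of the 8 called in the interaction (-1.65, adjusted p = 0.033), where 7.56% of all genes were called. It was at 22.9, 11.9, 10.007 and 11.2 CPM in KO/YAP, 14.5 to 31.8 CPM in KO/GFP, 20.1 to 28.0 CPM in WT/YAP and 5.32 to 17.7 CPM in WT/GFP hearts.

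Of 22 adaptors and kinases downstream of the receptors, 1 was called in the uninjected hearts, where 6.69% of all genes were called. In KO/GFP against WT/GFP 2 of the 22 were called and in KO/YAP against KO/GFP 2, beside 13.7% and 14.8% of all genes. Pik3r1 was called between the genotypes in both experiments, with a list median near that of all genes (-0.02 against 0.00 in the uninjected hearts). Pik3r1 encodes the p85α regulatory subunit of PI3K. It was at 79.1 CPM in uninjected KO replicate 1, at 150.05 to 223 CPM in the other three and at 73.7, 68.2, 50.7 and 61.9 CPM in WT replicates 1 to 4 (log2 fold change 1.27, 95% interval 0.60 to 1.95, adjusted p = 0.039, limma), a call that was lost with columns rescaled to the same sum and without KO replicate 2, KO replicate 3 or any 1 of the WT replicates (adjusted p up to 0.12). With GFP it was at 158, 81.6, 138 and 170 CPM in KO and 53.5 to 64.2 CPM in WT hearts (1.16, adjusted p = 0.00049). KO/YAP hearts, at 55.1 to 65.4 CPM, lay below all KO/GFP hearts (-1.11, adjusted p = 0.00066), with an interaction of -1.04 (adjusted p = 0.019). KO replicate 1 without vector and KO/GFP replicate 2 were again the lowest of their groups. Pik3cb, a catalytic subunit of PI3K, was higher in KO/YAP than in KO/GFP hearts (0.40, adjusted p = 0.022).

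**Figure D5:**
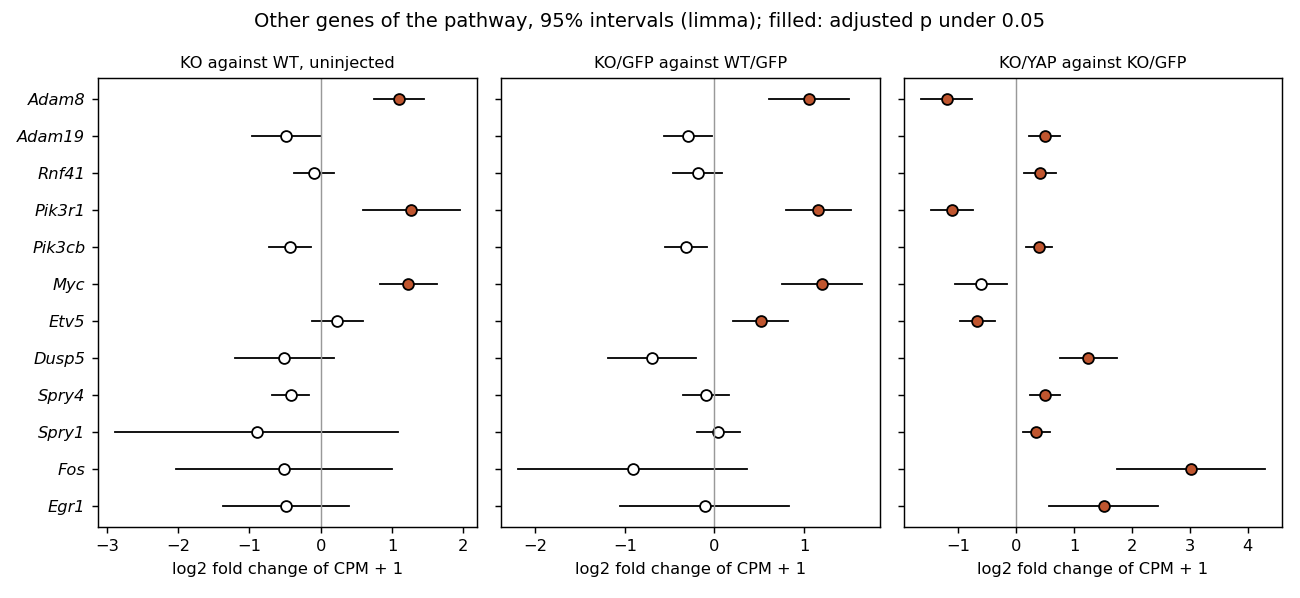
Log2 fold change of CPM + 1 (x axes, scaled apart) with its 95% interval from limma for other genes of the pathway (rows) in 3 comparisons (panels), where filled points have an adjusted p under 0.05. Adam8 (1.10, 1.06 and -1.20) and Pik3r1 (1.27, 1.16 and -1.11) are called in all 3 panels; Fos, at 3.02, lies farthest from 0.

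Among 16 genes induced by ERK signals or acting as its feedback inhibitors, 5 were called higher and 1 lower in KO/YAP than in KO/GFP hearts, where 14.8% of all genes were called in either direction, with a list median of 0.17 against 0.01 for all genes. The fibroblast, macrophage, smooth muscle and pericyte, endothelial, cardiomyocyte and atrial sums given beside Hbegf also moved apart in this comparison. Only Nppa was called among the atrial markers, and the part of all these lists in the values of these genes was not tested. Fos, an immediate-early transcription factor, was at 25.8, 15.9, 51.6 and 44.6 CPM in KO/YAP and 1.12, 9.09, 0.995 and 4.90 CPM in KO/GFP replicates 1 to 4 (log2 fold change 3.02, 95% interval 1.74 to 4.30, adjusted p = 0.0035, limma). The control hearts spread widely, from 2.01 to 22.3 CPM in WT/GFP and from 1.81 to 20.9 CPM in uninjected WT libraries. Egr1, of the same class, had 1.51 (adjusted p = 0.031), with 49.9 to 183 CPM in KO/YAP and 18.1 to 50.5 CPM in KO/GFP hearts, which overlapped. Dusp5, an ERK phosphatase, was at 22.6 to 36.2 CPM in KO/YAP and 10.2 to 17.4 CPM in KO/GFP hearts (1.25, adjusted p = 0.0022).

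The feedback inhibitor Spry4 was at 29.9, 32.5, 36.1 and 32.4 CPM in KO/YAP, above KO/GFP hearts at 19.2 to 26.6 CPM (log2 fold change 0.49, adjusted p = 0.012, limma). It was at 18.4 to 25.3 CPM in WT/YAP and 20.6 to 27.3 CPM in WT/GFP hearts, with an interaction of 0.66 (adjusted p = 0.030). Spry1, named after its values were seen, was the fifth gene that was higher (0.35, adjusted p = 0.046). Etv5, an ETS transcription factor, was lower with YAP in KO hearts (-0.67, adjusted p = 0.0056), at 10.6 to 12.5 CPM against 14.9 to 23.0 CPM, and higher in KO/GFP than in WT/GFP hearts (0.52, adjusted p = 0.025). Dusp6, an ERK phosphatase often read as a gauge of ERK activity, had 0.20 in KO/YAP against KO/GFP (95% interval -0.10 to 0.50, adjusted p = 0.37) and -0.25 in uninjected KO against WT (adjusted p = 0.34).

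Myc, a growth-promoting transcription factor, was the 1 gene of these 16 called in the uninjected hearts and, with Etv5, 1 of 2 called with GFP, at backgrounds of 6.69% and 13.7%. In the uninjected hearts the list median was -0.29 against 0.00 for all genes, and DESeq2, like limma with columns rescaled to the same sum, called 1 of the 16 higher and 3 lower. Myc was at 20.5, 18.2, 17.2 and 13.4 CPM in uninjected KO and 6.59, 6.04, 5.61 and 9.19 CPM in WT replicates 1 to 4 (log2 fold change 1.23, 95% interval 0.83 to 1.62, adjusted p = 0.0057, limma). With GFP it was at 16.8, 9.15, 9.24 and 20.1 CPM in KO and 3.88 to 5.98 CPM in WT hearts (1.20, adjusted p = 0.0017). KO/YAP hearts were at 6.82 to 9.66 CPM (-0.60 against KO/GFP, adjusted p = 0.067), and the interaction was -1.05 (adjusted p = 0.044). Of the 59 genes tested from these 5 lists, 0 were called in KO/YAP against WT/GFP and 0 in WT/YAP against WT/GFP by limma, edgeR's quasi-likelihood test or DESeq2, where limma called 0.0206% and 0% of all genes. An unadjusted p under 0.05 was met by 8 and 4 of the 59, and by 6.08% and 6.93% of all genes. In KO/YAP against WT/GFP 6 of these 8 were among the 16 ERK-response genes, namely Fos (2.11), Egr1 (1.41), Myc (0.60), Dusp5 (0.55), Spry4 (0.41) and Spry1 (0.40, log2 fold changes), with adjusted p between 0.66 and 0.78 (limma).

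Some of these calls were lost under other settings or when 1 library was left out. With only the 2 groups compared in the fit, Pik3cb, Egr1, Rnf41 and Spry1 in KO/YAP against KO/GFP and Etv5 in KO/GFP against WT/GFP were not called. Neither was Etv5 there with columns rescaled to the same sum, nor Myc in the interaction. Quantile normalisation ended the calls of Rnf41 and Spry1, a fit without the variance trend that of Spry1, and the Ddx3y covariate those of Spry1 and, in the interaction, Myc. In KO/YAP against KO/GFP, Pik3cb was not called without KO/GFP replicate 4 or KO/YAP replicates 1 or 3 (adjusted p up to 0.060). Egr1 was not called without KO/GFP replicates 1, 3 or 4 or KO/YAP replicates 3 or 4 (up to 0.096), and Rnf41 without KO/GFP replicates 1 or 2 or KO/YAP replicates 1, 2 or 3 (up to 0.13). Spry1 was called in 2 of 8 such fits, without KO/GFP replicate 3 or KO/YAP replicate 2 (otherwise up to 0.13). In KO/GFP against WT/GFP, Etv5 was not called without KO/GFP replicates 1 or 4 or WT/GFP replicates 2, 3 or 4 (up to 0.090). In the 16 such fits of the interaction, Adam8 and Spry4 were called in 9 each (up to 0.061 and 0.063), Cblb in 8 (up to 0.065) and Myc in 3 (up to 0.089). Adam8, Pik3r1 and Myc in KO/GFP against WT/GFP, Adam8, Adam19, Pik3r1, Fos, Dusp5, Spry4 and Etv5 in KO/YAP against KO/GFP, and Adam8 and Myc in the uninjected hearts were called in all 8.

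The genes most like each member were sought among 13728 genes tested in both experiments, as the 3 with the highest Pearson r of log2(CPM + 1) over the 16 injected libraries. Erbb4 was most like Fermt2 (r = 0.95), Sptbn1 (0.92) and Gm44986 (0.92), which had r of 0.70, 0.81 and 0.63 over the 8 uninjected libraries. Egfr was most like Mbnl2, Fry and Fmnl2 (0.87, 0.87 and 0.86), with 0.92, 0.95 and 0.79 in the uninjected libraries. Hbegf was most like Txndc12, Polr1e and Katnbl1 (0.87, 0.86 and 0.84), with 0.69, 0.88 and 0.57. For Erbb2 (Six5, Clmp and Fgf18), Erbb3 (Kcna4, Epn3 and Mterf3) and Nrg1 (Fbn2, Zfp523 and 9330102E08Rik) the values of 0.69 to 0.81 did not carry over as a whole, with r from -0.17 to 0.74 in the uninjected libraries.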

How the data were processed

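Strand-specific poly(A) RNA-seq libraries of each experiment were sequenced on a single flow cell lane. The authors used Cutadapt 2.3 for trimming, HISAT2 2.1.0 for alignment to GRCm38, StringTie 1.3.4 for counting and edgeR 3.26.1 for CPM. Whether counting used strand is not given in the sources used here. The deposited values were treated as a normalised signal, since columns sum to 942566 to 1134439, and 100% of the values were whole multiples of 1 read within 0.1 read. Symbols and positions came from GENCODE M21 (15655 of 15667 and 15314 of 15327 identifiers matched). Values were transformed to log2(CPM + 1), and genes above 1 CPM in at least 4 of 8 uninjected or 8 of 16 injected libraries (15598 and 14597 genes) were fitted with limma 3.58.1 (mean-variance trend, Benjamini-Hochberg), each experiment apart, 1 model for all 16 injected libraries. The study's methods name an exact test on counts. Alternatives were other scalings, pseudocount, filters and variance models, a Ddx3y covariate, a replicate block, edgeR 4.0.16 and DESeq2 1.42.0 on recovered reads, and leaving out each library. The test was tried on simulated data. Members and lists were chosen with earlier results of these data known. Besides the 6 members, genes were named when called in KO against WT (uninjected or GFP) or KO/YAP against KO/GFP, at most 6 per list, and a few pathway genes whatever their p. Some genes of the lists are not reported here.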

Additional observations from a re-analysis of the deposited data

Results flagged for a closer look

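Nrg1 in WT/GFP replicate 4 was at 4.00 CPM (73 reads), and the other 3 WT/GFP libraries were at 1.45 to 1.73 CPM. The gap to the nearest library, as a share of the group's range, was past Dixon's 95% critical value for 4 samples. Of 36 sets of 4 values checked (6 genes in 6 groups) this was the 1 set apart, and chance gives about 1 in 20. Without this library, the log2 fold change of Nrg1 in KO/GFP against WT/GFP went from -0.05 to 0.20 (adjusted p = 0.67, limma).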

How the results depend on the processing

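Of the 6 genes, 1 was called in uninjected KO against WT, 2 (Erbb3 and Hbegf) with columns rescaled to the same sum, with the Ddx3y covariate, by the edgeR exact test and by DESeq2, and 0 to 3 with 1 library left out. The settings with 2 also called more of all genes than the main fit, which called 504 higher and 540 lower. Their counts were 353 and 1241 (rescaled), 809 and 1118 (covariate), 771 and 755 (exact test) and 997 and 958 (DESeq2). With the replicate block 0 were called there; same-numbered libraries did not deviate together (r of -0.19 to 0.098 uninjected, -0.17 to 0.14 injected), so the numbers were not taken as pairs, and the block changed no other call among the 6 genes. Among the named pathway genes it ended the calls of Pik3r1 in the uninjected hearts, of Rnf41 in KO/YAP against KO/GFP and of Myc, Spry4 and Cblb in the interaction. KO/GFP against WT/GFP had 0 to 2 called with 1 library left out. KO/YAP against KO/GFP had 1 (Hbegf) with rescaled columns and by DESeq2, and 0 to 1 with 1 library left out. Over all genes rescaling called 2156 higher and 591 lower there and DESeq2 1315 and 1297, against 1146 and 1010 in the main fit. The other three comparisons had 0 called under all settings run.

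Signs turned for values near 0. Rescaling gave -0.074 for Erbb2 (uninjected) and 0.11 for Egfr in KO/YAP against KO/GFP, which was 0.0056 with a pseudocount of 0.1 and 0.062 with the covariate. Nrg1 was 0.0038 in KO/GFP against WT/GFP after quantile normalisation, and in WT/YAP against WT/GFP -0.027 by edgeR's quasi-likelihood test, -0.028 by its exact test and -0.026 by DESeq2. The interaction of Erbb3 was -0.0038 with the covariate.

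With 1 library left out, the ranges that crossed 0 were -0.43 to 0.025 for Erbb4 (uninjected) and -0.17 to 0.20 for Nrg1 (KO/GFP against WT/GFP). For KO/YAP against KO/GFP they were -0.30 to 0.16 for Egfr, -0.068 to 0.16 for Erbb3, -0.040 to 0.18 for Erbb4 and -0.39 to 0.0015 for Nrg1. For KO/YAP against WT/GFP they were -0.16 to 0.069 for Erbb3, -0.077 to 0.37 for Hbegf and -0.31 to 0.038 for Nrg1. For WT/YAP against WT/GFP they were -0.089 to 0.086 for Erbb3, -0.082 to 0.068 for Hbegf and -0.068 to 0.28 for Nrg1, and for the interaction -0.082 to 0.14 for Erbb3. The cause was not tested. Nrg1 rested on 14 to 73 reads per library. Of 786 alternative values of single genes, 728 kept direction and side of the threshold.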
